A study of Mus musculus with 12 samples.

Results

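Long non-coding RNA (lncRNA) genes give transcripts that are spliced and capped like messenger RNAs but carry no long reading frame. Some act as RNAs, as Xist does on the inactive X chromosome, and some are known mainly for the small RNAs cut out of their introns or exons. The most abundant lncRNA genes of a mouse pancreatic cancer line were examined here. The table holds 17340 genes, of which 1520 are typed as lncRNA. Malat1 and Neat1 were set aside, the raw counts of the other 1518 were summed over all libraries, and the 150 genes with the highest sums were taken. These 150 genes are called the members. Their order therefore comes from the measured counts, and it is given as a description only. At the edge of the choice, Gm37423 and Gm45250 had summed counts of 2705 and 2700, and the first genes left out, C730027H18Rik and 2810403D21Rik, had 2668 and 2663. Among the members, 10 bear the names given to small nucleolar RNA (snoRNA) host genes, namely Gas5 and 9 genes named Snhg, and these are described apart from the other 140.

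The cells were KPC cells of C57BL/6 genotype, a line of mouse pancreatic cancer. They were treated with JQ1, I-BET151 or ITF2357, each at 1 µM for 48 h, or kept as controls, which the labels call both untreated and PBS. Each of the 4 groups had 3 libraries made from total RNA. JQ1 and I-BET151 inhibit the BET bromodomain proteins, which read acetylated histones at active genes. In structure JQ1 belongs to the thienotriazolodiazepines, whereas I-BET151 is built on an imidazoquinoline with a dimethylisoxazole. ITF2357, also named givinostat, inhibits histone deacetylases, the enzymes that remove such acetyl groups.

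Library totals ran between 21015748 and 31231260 counts. The labels do not tell whether a group's libraries are separate cultures. A p-value here therefore reflects spread among libraries only, which may be technical. All 8 epithelial markers on a fixed list were in the table, with summed levels of 3478 to 3554 CPM (read counts scaled to library size) with JQ1, 5447 to 5460 CPM with I-BET151, 5163 to 5388 CPM with ITF2357 and 3256 to 3362 CPM in the control. Of 7 macrophage and leukocyte markers 1 was in the table, and Ptprc, Adgre1 and Cd3e were not in it. That marker was at 6.14 to 7.91 CPM with JQ1, 6.08 to 8.11 CPM with I-BET151, 4.15 to 4.67 CPM with ITF2357 and 6.61 to 7.69 CPM in the control. Summed fibroblast markers (4 of 7 in the table, with Dcn, Lum and Col1a2 not in it) were at 23.6 to 29.7 CPM with JQ1, 7.77 to 9.37 CPM with I-BET151, 20.9 to 24.1 CPM with ITF2357 and 23.1 to 24.5 CPM in the control. Endothelial markers (3 of 5, Cdh5 and Tek not in the table) summed to 3.70 to 4.36 CPM with JQ1, 0.929 to 1.16 CPM with I-BET151, 1.33 to 1.98 CPM with ITF2357 and 4.16 to 5.05 CPM in the control. The 1 acinar marker of 6 in the table was at 4.43 to 5.83 CPM with JQ1, 0.276 to 0.633 CPM with I-BET151, 5.94 to 7.04 CPM with ITF2357 and 3.86 to 4.55 CPM in the control. The epithelial levels lay above the control with every compound. With JQ1 the other levels overlapped the control, as did the fibroblast levels with ITF2357 and the leukocyte marker with I-BET151. The remaining levels with I-BET151 and ITF2357 lay apart from the control. The part of these differences in the results that follow was not tested. CPM values are scaled within each library, so a change in the total RNA of a cell cannot be seen, and fewer cells and less RNA per cell cannot be told apart.

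The counts of the class were very unevenly spread. Gm26917 alone, with a total of 9404179, held 76.0% of the counts of the members, while the median member had a total of 5948. Gm26917 and Gm42418 together held 84.5%. Gm26917 (mm10, chr17:39843013-39846341, plus strand) and Gm42418 (chr17:39846958-39848788, plus strand) lie side by side. RefSeq lists Gm42418 as another name of Rn18s-rs5, a pseudogene related to 18S ribosomal RNA, and GENCODE M21 has a ribosomal RNA gene, CT010467.1, across it. Reads of ribosomal RNA and of its many near-identical copies can be counted there, and how ribosomal RNA was removed was not stated. Counts of these 2 genes are therefore uncertain.

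Gm26917 and Gm42418 did not share one pattern. Gm26917 had 28456, 30150 and 28468 CPM with JQ1, 26139, 26112 and 25881 CPM with I-BET151, and 35926, 33570 and 35874 CPM with ITF2357, against 33237, 35491 and 34893 CPM in the control. It lay below every control library with both BET inhibitors, and the ITF2357 libraries overlapped the control. Its fitted log2 fold change was -0.25 ± 0.02 (SE) with JQ1 (adjusted p = 9.46e-11), -0.41 ± 0.02 with I-BET151 (adjusted p = 2.06e-17) and 0.02 ± 0.02 with ITF2357 (adjusted p = 0.379). Without the ITF2357 replicate 2, the last value became 0.06 and passed the test (adjusted p = 0.0155). Gm42418 fell with all 3 compounds, by 0.25 for JQ1, 0.29 for I-BET151 and 0.32 for ITF2357 on the log2 scale, each ± 0.03 (SE).

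The members took 3.98% to 4.16% of library counts with JQ1, 3.27% to 3.30% with I-BET151, 4.33% to 4.55% with ITF2357, and 4.61% to 4.83% in the control. No compound group overlapped the control. Without Gm26917 and Gm42418 the mean shares were 0.702% ± 0.0104 with JQ1, 0.564% ± 0.00272 with I-BET151, 0.568% ± 0.00754 with ITF2357 and 0.744% ± 0.00498 in the control (SD, n = 3 each). Every one of these differences had an exact two-sided permutation p of 0.1, which is the smallest that 3 libraries against 3 can give.

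Per length of transcript, the members after that pair ran between 0.808 RPKM for E130307A14Rik and 206 RPKM for Gm10076 in the control (RPKM is reads scaled to library size and per kilobase of length). Gm10076, a gene of 384 bases, was followed by 2410006H16Rik with 136 RPKM, Gm28119 115 RPKM and Gm44190 81.9 RPKM. Gas5 had 50.1 RPKM in the control, Snhg1 42.5 RPKM and Tug1 25.2 RPKM. Short genes thus stood higher per length than by summed count, where Kcnq1ot1, 3110039I08Rik and Tug1 followed that pair. Most of the 150 carry clone names and have no role that is well known. The lncRNA type is that of the counted table, and other annotations do not share it for every member. GENCODE M21 types Gm47283 as protein-coding. RefSeq lists Gm12940 under Sfpq, Ndufb1-ps under Ndufb1 and D930016D06Rik under Thoc2l.

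All 150 members passed the filter on low counts and were tested with all other genes. A gene was called when its adjusted p was under 0.05 over all 17340 genes. With JQ1, 24 members rose and 34 fell, where 24.8% of all genes tested were called in either direction, 12.5% higher and 12.3% lower. With I-BET151, 68 rose and 61 fell, where 63.1% of all genes were called, 30.5% higher and 32.6% lower. With ITF2357, 27 rose and 85 fell, where 54.0% of all genes were called, 27.6% higher and 26.4% lower. Falls with ITF2357 made up 56.7% of the members, and 27 of 150 rose. The members are deeply counted, so the background among the 9611 genes with a summed count at least as high as the lowest member is the closer one. There 39.2% were called with JQ1 (19.4% higher, 19.7% lower), 79.1% with I-BET151 (42.2% higher, 36.8% lower) and 69.7% with ITF2357 (36.9% higher, 32.8% lower). Beside the median over all genes of 0.00, -0.03 and -0.01, the median log2 fold change of the members was -0.01 (JQ1), 0.05 (I-BET151) and -0.23 (ITF2357).

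The size of the changes separated the BET inhibitors. No member was called with a change of at least 2-fold with JQ1, where 0.606% of all genes were. With I-BET151 36 members were, or 24.0%, where 15.7% of all genes were, and with ITF2357 13 members were, or 8.67%, where 8.66% of all genes were. A scaling choice bears on the split with I-BET151: scaling by library totals in place of TMM factors shifted the all-gene median by -0.16 on the log2 scale, and the members then split into 48 higher and 72 lower. With ITF2357 that scaling gave 26 higher and 90 lower.

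**Figure D1:**
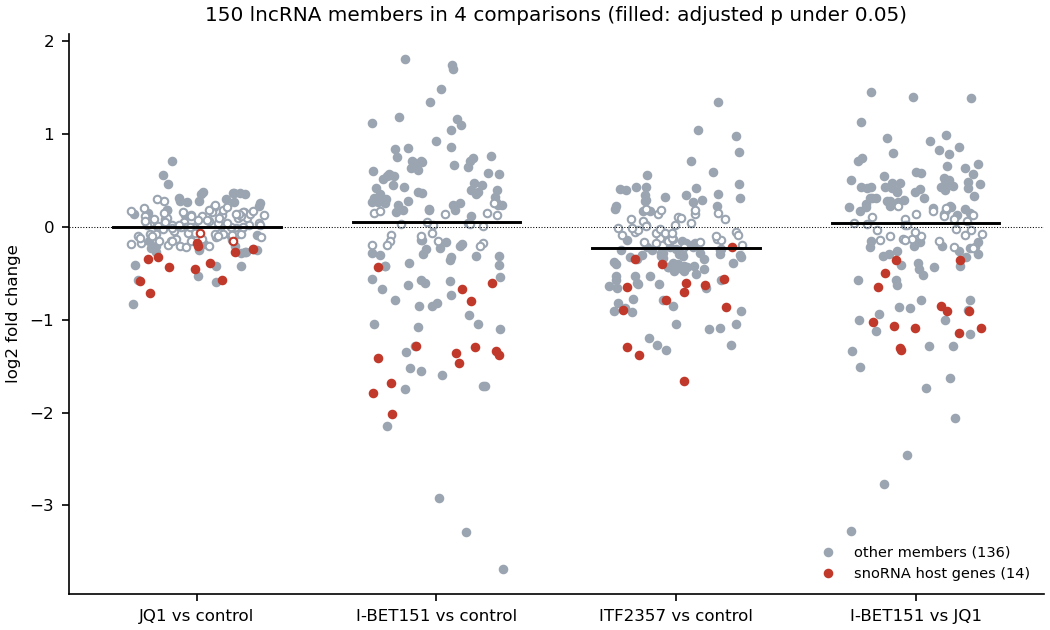
Fitted log2 fold changes of the 150 members in 4 comparisons (vertical axis), with the 14 snoRNA host genes in red and the other members in grey. Filled points passed an adjusted p of 0.05, open points did not, black bars are medians over all 150, and side-by-side position within a column is only spread out for view. The red points lie below 0 in every column.

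SnoRNA host genes carry snoRNAs in their introns. The snoRNAs guide methylation and pseudouridylation of ribosomal RNA, while the spliced host transcript is often short-lived because translation of it triggers nonsense-mediated decay. Many of these hosts begin with a pyrimidine run at the transcription start, the 5′ terminal oligopyrimidine (TOP) pattern that they share with ribosomal protein genes. The GENCODE annotation places 10 snoRNA genes inside Gas5, 8 inside Snhg1, 5 inside Snhg12, 3 inside Snhg17 and 1 or 2 inside each of the other Snhg members. These are genes of the type snoRNA, and 1 of those in Gas5 (Mir5117) and 1 of those in Snhg4 (Mir1949) bear microRNA names. Another 4 members hold annotated snoRNA genes without a host name in the table: Zfas1, 2410006H16Rik and 1810032O08Rik with 3 each, and 1110038B12Rik with 2. RefSeq names 1810032O08Rik Snhg16. Together they make 14 snoRNA host genes. AI506816 holds 1 gene that is typed as a snoRNA but named Mir3096, and it was not counted as a host.

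The start regions of 7 of these hosts are printed because a pyrimidine run begins close to the start. Sequences are from RefSeq (GRCm38.p6), 100 bases before to 50 bases after the start, read 5′ to 3′ on the strand of the gene. The RefSeq start lies 0 to 68 bases from the GENCODE start of these 7 genes. Capitals mark the pyrimidine run near the start and any TATAAA, or its reverse complement TTTATA. Counted from the RefSeq start as the first base, the run begins at base 5 in Snhg1 and base 3 in 1110038B12Rik. In Snhg5 and 1810032O08Rik it begins at base 8. It begins before the start, at -3 in Snhg12, -1 in Snhg8 and -5 in 2410006H16Rik. Whether these runs are TOP starts was not tested.
Snhg1 (chr19:8723387-8723536, plus strand): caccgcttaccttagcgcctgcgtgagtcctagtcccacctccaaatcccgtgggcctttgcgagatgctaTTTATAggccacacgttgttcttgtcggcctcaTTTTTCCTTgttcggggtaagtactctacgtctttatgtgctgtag
Snhg12 (chr4:132308578-132308727, plus strand): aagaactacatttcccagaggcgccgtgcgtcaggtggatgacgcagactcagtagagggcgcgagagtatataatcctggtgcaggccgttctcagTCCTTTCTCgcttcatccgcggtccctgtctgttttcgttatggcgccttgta
Snhg5 (chr9:88522848-88522997, minus strand): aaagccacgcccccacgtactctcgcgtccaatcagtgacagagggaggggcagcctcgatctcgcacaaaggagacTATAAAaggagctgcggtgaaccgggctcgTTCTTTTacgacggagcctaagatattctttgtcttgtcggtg
Snhg8 (chr3:123508287-123508436, minus strand): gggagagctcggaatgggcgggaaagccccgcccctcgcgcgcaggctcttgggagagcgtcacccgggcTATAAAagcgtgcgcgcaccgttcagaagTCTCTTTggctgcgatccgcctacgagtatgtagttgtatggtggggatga
2410006H16Rik (chr11:62602777-62602926, plus strand): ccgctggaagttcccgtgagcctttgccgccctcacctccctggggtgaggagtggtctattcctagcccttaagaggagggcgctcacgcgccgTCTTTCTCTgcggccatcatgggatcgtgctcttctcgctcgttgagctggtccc
1110038B12Rik (chr17:34952422-34952571, minus strand): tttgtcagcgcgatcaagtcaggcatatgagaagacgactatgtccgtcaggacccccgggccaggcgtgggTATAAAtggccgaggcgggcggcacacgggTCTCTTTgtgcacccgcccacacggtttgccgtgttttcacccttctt
1810032O08Rik (chr11:116671560-116671709, plus strand): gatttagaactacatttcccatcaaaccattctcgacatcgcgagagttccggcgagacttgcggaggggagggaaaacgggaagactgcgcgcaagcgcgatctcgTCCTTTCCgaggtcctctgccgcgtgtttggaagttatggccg

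RefSeq windows of 300 bases, 250 before to 50 after the start, were matched for 82 members, 12 of them hosts. A run of at least 7 pyrimidines on the gene's strand was sought, overlapping the 20 bases either side of the start. It was in 8 of the 12 host windows (66.7%) and in 25 of the 70 windows of other members (35.7%). A wider set of 27025 windows, called all windows here, had it in 30.2%. TATAAA on either strand was in 5 host windows (41.7%), in 18.6% of the windows of other members and in 14.1% of all windows. The E-box CACGTG, a palindrome that Myc family factors can bind, was in 0 of the 12 host windows, in 12.9% of the windows of other members and in 7.09% of all windows. The 27025 windows outnumber the 17340 genes tested, so they are not the all-gene background used for the calls. Differences between these shares were not tested. Matches are descriptions of the letters in these windows.

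All 10 members named Snhg or Gas5 fell with I-BET151 and with ITF2357, 8 of 10 fell with JQ1, and none rose with any compound. Their median log2 fold change was -0.30 for JQ1, -1.35 for I-BET151 and -0.64 for ITF2357. Gas5 (chr1:161034422-161038539, plus strand), a growth-arrest gene with the most snoRNAs of the group, had 145, 141 and 145 CPM with JQ1, 76.9, 75.8 and 76.7 CPM with I-BET151, and 106, 104 and 103 CPM with ITF2357, against 189, 188 and 188 CPM in the control. The 4 groups did not overlap, and their order was I-BET151, ITF2357, JQ1 and control from low to high. The fall was 1.31-fold with JQ1, 2.47-fold with I-BET151 and 1.81-fold with ITF2357 (log2 fold changes -0.39 ± 0.03, -1.30 ± 0.03 and -0.86 ± 0.03, SE; adjusted p = 1.26e-12, 1.37e-27 and 9.18e-23).

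Snhg12 had the largest change of the 10. It had 12.9, 13.6 and 14.6 CPM with JQ1, 6.02, 5.40 and 5.10 CPM with I-BET151, and 8.05, 8.74 and 8.88 CPM with ITF2357, against 22.3, 22.4 and 22.2 CPM in the control. The groups again stood apart in the same order. Its log2 fold change was -0.71 ± 0.08 for JQ1, -2.02 ± 0.09 for I-BET151 and -1.38 ± 0.08 for ITF2357 (SE; adjusted p = 1.54e-08, 1.58e-19 and 5.53e-16), so that with I-BET151 its level was 4.06-fold lower than in the control.

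Snhg1 (chr19:8723475-8726443, plus strand) starts 106 bases from Slc3a2, the heavy chain of several amino acid transporters, which runs the other way. Snhg1 had 85.7, 86.4 and 83.8 CPM with JQ1, 44.7, 45.7 and 46.0 CPM with I-BET151, and 65.7, 73.8 and 64.0 CPM with ITF2357, against 129, 123 and 126 CPM in the control. No group overlapped another. The log2 fold changes of Snhg1 were -0.57 ± 0.04, -1.47 ± 0.04 and -0.90 ± 0.04 (SE) with JQ1, I-BET151 and ITF2357. Slc3a2 fell as well, with log2 fold changes of -0.49 ± 0.03, -1.15 ± 0.03 and -0.98 ± 0.03 (SE) in the same order of compounds.

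Snhg4, Snhg5, Snhg6 and Snhg8 had log2 fold changes of -1.34 to -1.41 with I-BET151, -0.61 to -0.70 with ITF2357 and -0.21 to -0.35 with JQ1. All 12 of these changes passed the test, but 2 of the smallest, both with JQ1, rested on the full set of libraries. Snhg6 missed the threshold without control replicate 2 (adjusted p = 0.0701) or control replicate 3 (adjusted p = 0.0558), and Snhg8 missed it without control replicate 1 (adjusted p = 0.0565).

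Snhg17, Snhg3 and Snhg20 changed little beside these. Snhg17 had 80.6, 80.8 and 81.4 CPM with JQ1, 57.6, 54.7 and 59.9 CPM with I-BET151, and 69.4, 67.5 and 70.3 CPM with ITF2357, against 91.0, 90.8 and 92.5 CPM in the control, and no group overlapped another. It fell with each compound, with log2 fold changes of -0.18 ± 0.04 for JQ1, -0.67 ± 0.04 for I-BET151 and -0.40 ± 0.04 for ITF2357 (SE; adjusted p = 0.000439, 1.08e-16 and 3.16e-11). Snhg20 had 16.3, 16.7 and 16.3 CPM with JQ1, 13.0, 12.3 and 13.2 CPM with I-BET151, and 11.9, 11 and 12.1 CPM with ITF2357, against 14.8, 18.1 and 18.8 CPM in the control. The JQ1 libraries lay within the control range and the other groups below it. With I-BET151 its log2 fold change of -0.43 ± 0.09 was smaller in size than that with ITF2357, -0.56 ± 0.09 (SE; adjusted p = 7.05e-05 and 1.17e-06), which is the reverse of the order seen in Gas5, Snhg1 and Snhg12. Snhg3, which begins 81 bases from the start of Rcc1 on the same strand and overlaps it, had log2 fold changes of -0.15 ± 0.08 with JQ1 (adjusted p = 0.213), -0.80 ± 0.09 with I-BET151 (adjusted p = 1.10e-09) and -0.22 ± 0.08 with ITF2357 (adjusted p = 0.0219, SE). The last call was lost without control replicate 1 (adjusted p = 0.152), ITF2357 replicate 1 (adjusted p = 0.0822) or ITF2357 replicate 3 (adjusted p = 0.106).

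**Figure D2:**
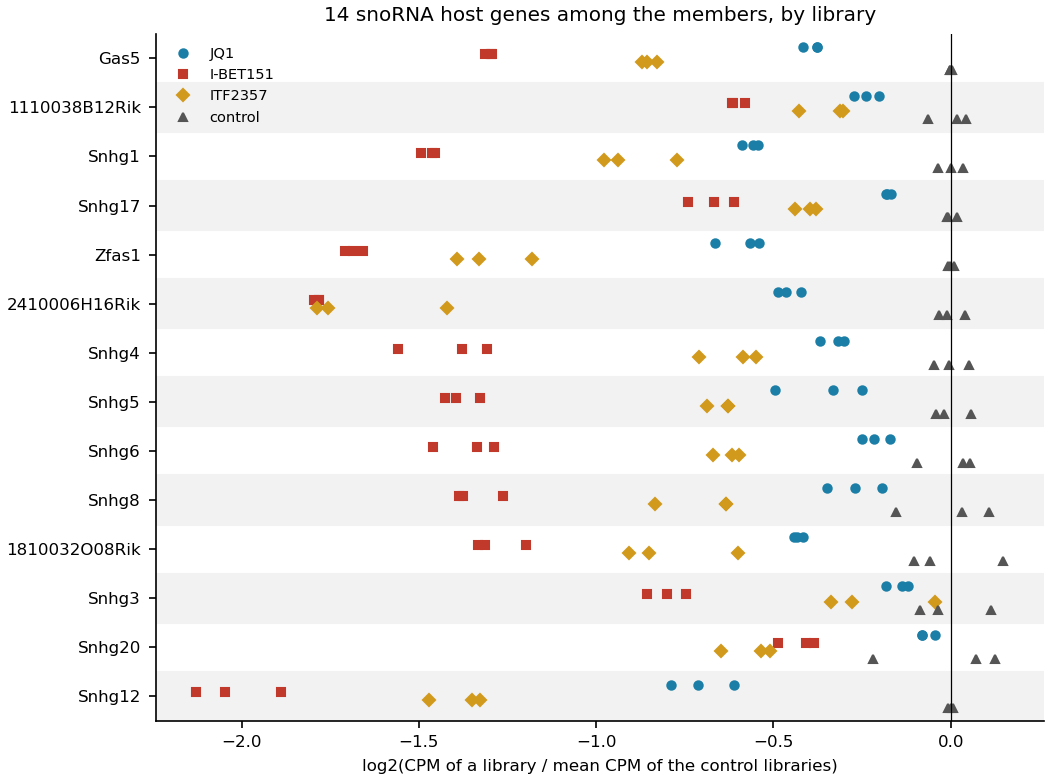
Level of each of the 14 snoRNA host genes in each of the 12 libraries, as log2 of the library's CPM over the mean CPM of the 3 control libraries (horizontal axis), with genes down the page in the order of their summed counts. Each symbol is 1 library. For 12 of the 14 genes the JQ1 call is lower, and for all 14 the I-BET151 and ITF2357 calls are lower than the control.

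The 4 hosts without such names moved the same way. All of them fell with all 3 compounds, with medians of -0.44 for JQ1, -1.48 for I-BET151 and -1.04 for ITF2357. 2410006H16Rik had 45.6, 46.9 and 44.9 CPM with JQ1, 18.3, 18.1 and 18.3 CPM with I-BET151, and 18.6, 23.5 and 18.2 CPM with ITF2357, against 64.7, 61.5 and 62.4 CPM in the control. Its levels with I-BET151 and ITF2357 overlapped, and both lay well below JQ1 and control. The fall was 3.45-fold with I-BET151, 3.16-fold with ITF2357 and 1.37-fold with JQ1. Zfas1 had 67.2, 66.0 and 61.7 CPM with JQ1, 29.9, 30.4 and 31 CPM with I-BET151, and 38.9, 43.1 and 37.2 CPM with ITF2357, against 97.3, 98.3 and 97.6 CPM in the control. Its start is 81 bases from that of Znfx1 on the other strand, and the 2 genes share 82 exonic bases. The log2 fold changes of Zfas1 were -0.59 ± 0.04, -1.68 ± 0.05 and -1.30 ± 0.05 (SE) with JQ1, I-BET151 and ITF2357, whereas Znfx1 had 0.04 ± 0.05, 0.21 ± 0.05 and -0.03 ± 0.05 (SE), of which only the second passed the test (adjusted p = 0.000928).

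As a share of all library counts the 10 genes named Snhg or Gas5 took 0.0483% ± 0.000486 with JQ1, 0.0242% ± 0.000281 with I-BET151, 0.0372% ± 0.000588 with ITF2357 and 0.0624% ± 0.000704 in the control (SD, n = 3 each). The 4 groups did not overlap, and each compound against the control had an exact two-sided permutation p of 0.1, the smallest possible. The table holds 15 genes of these names in all, including those counted too low to be members. Of these 15, 9 fell for JQ1, 13 for I-BET151 and 11 for ITF2357, and none rose. The shares of all genes that fell were 12.3%, 32.6% and 26.4%.

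The wider snoRNA pathway was read from 3 fixed lists. Over all 17340 genes, 12.3% fell and 12.5% rose with JQ1, 32.6% and 30.5% with I-BET151, and 26.4% and 27.6% with ITF2357. Among the 9611 genes counted as deeply as the members, these shares were 19.7% and 19.4%, 36.8% and 42.2%, and 32.8% and 36.9%. Among 31 protein-coding snoRNA host genes, many of them ribosomal protein genes, 23 fell and 2 rose with JQ1 (median log2 fold change -0.21), 26 fell and 5 rose with I-BET151 (median -0.58), and 20 fell and 6 rose with ITF2357 (median -0.17). Nop56 and Dkc1, which are both hosts and proteins of snoRNA particles, fell by 1.24 and 1.27 with I-BET151 on the log2 scale, while Hspa8, a heat-shock host gene, rose with all 3 compounds (0.12, 0.47 and 0.62 with JQ1, I-BET151 and ITF2357). Among 15 proteins that build snoRNA particles, 10 fell and none rose with JQ1 (median -0.23), 14 fell and 1 rose with I-BET151 (median -0.91), and 9 fell and 1 rose with ITF2357 (median -0.17). The exception was Nop10, at 0.29 with I-BET151 and 0.69 with ITF2357. Among 10 factors of nonsense-mediated decay, 2 fell and none rose with JQ1 (median -0.06), 3 fell and 5 rose with I-BET151 (median 0.08), and 3 fell and 2 rose with ITF2357 (median -0.01). Upf3a had the largest of these changes, 0.86 with I-BET151.

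Some lncRNA genes carry microRNA genes, which are cut from their transcripts and repress messages through a seed at bases 2 to 8. RefSeq places 23 microRNA genes inside 12 members, on the strand of the member, and Mir125b-1 lies inside both 3110039I08Rik and Gm28119. These members were picked out by position after their values were known. Levels of mature microRNAs were not measured in these libraries. The mature sequences printed are those of the members that are described next, from RefSeq (GRCm38.p6), 5′ to 3′ with the seed in capitals.
mmu-miR-125b-5p in 3110039I08Rik and Gm28119: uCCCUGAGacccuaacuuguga
mmu-miR-100-5p in 3110039I08Rik: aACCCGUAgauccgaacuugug
mmu-miR-17-5p in Mir17hg: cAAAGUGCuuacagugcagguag
mmu-miR-20a-5p in Mir17hg: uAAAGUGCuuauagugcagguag
mmu-miR-18a-5p in Mir17hg: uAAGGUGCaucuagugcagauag
mmu-miR-19a-3p in Mir17hg: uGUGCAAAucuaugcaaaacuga
mmu-miR-19b-3p in Mir17hg: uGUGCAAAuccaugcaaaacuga
mmu-miR-92a-3p in Mir17hg: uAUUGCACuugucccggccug
mmu-miR-31-5p in Gm49890: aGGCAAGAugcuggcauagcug
mmu-miR-15a-5p in Dleu2: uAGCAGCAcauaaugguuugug
mmu-miR-16-5p in Dleu2: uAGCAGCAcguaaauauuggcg
mmu-let-7d-5p in 6720427I07Rik: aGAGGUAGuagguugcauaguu
mmu-let-7b-5p in Lncppara: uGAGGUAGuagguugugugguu
mmu-miR-22-3p in Mir22hg: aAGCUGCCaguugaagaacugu
Within these, miR-17 and miR-20a share a seed, miR-19a and miR-19b share another, miR-15a and miR-16 a further one, and the let-7 members carry their common seed.

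Of the 12 members with microRNA genes, 3 fell and none rose with JQ1, 6 fell and 6 rose with I-BET151, and 9 fell and 1 rose with ITF2357. The median log2 fold changes were -0.05, -0.03 and -0.36, so these members did not move as one group with I-BET151. Among all 150 members, 34 fell and 24 rose with JQ1, 61 and 68 with I-BET151, and 85 and 27 with ITF2357. Among the 9611 genes counted as deeply, 19.7% fell and 19.4% rose with JQ1, 36.8% and 42.2% with I-BET151, and 32.8% and 36.9% with ITF2357. The even split with I-BET151 was thus close to that of all members. Differences from these backgrounds were not tested. 3110039I08Rik, which RefSeq names Mir100hg, spans chr9:41327077-41716994 and carries the genes of miR-100, let-7a-2 and miR-125b-1. It was the fourth most counted member, with 931, 893 and 908 CPM with JQ1, 292, 295 and 298 CPM with I-BET151, and 456, 471 and 472 CPM with ITF2357, against 963, 963 and 976 CPM in the control. The groups did not overlap. Its log2 fold change was -0.09 ± 0.02 for JQ1, -1.71 ± 0.02 for I-BET151 and -1.05 ± 0.02 for ITF2357 (SE; adjusted p = 0.00297, 1.14e-34 and 1.62e-28). Gm28119, a gene of 298 exonic bases around miR-125b-1 within the same span, had log2 fold changes of -0.21 ± 0.06, -1.71 ± 0.07 and -0.92 ± 0.07 (SE), and counts of the 2 overlapping genes cannot be told apart fully. Its JQ1 call was lost without control replicate 2 (adjusted p = 0.0794) or JQ1 replicate 2 (adjusted p = 0.0956).

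Mir17hg is the host of the miR-17-92 cluster, 6 microRNA genes that Myc is known to activate and that promote growth in many tumours. It had 12.9, 12.4 and 11.4 CPM with JQ1, 4.90, 6.04 and 5.88 CPM with I-BET151, and 9.76, 9.67 and 8.98 CPM with ITF2357, against 14.8, 13.3 and 13.0 CPM in the control. Each group lay below the control libraries, with I-BET151 lowest. The log2 fold change was -1.28 ± 0.10 with I-BET151 (adjusted p = 8.00e-13), -0.53 ± 0.09 with ITF2357 (adjusted p = 1.11e-05) and -0.16 ± 0.09 with JQ1, which missed the threshold (adjusted p = 0.23, SE).

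Other hosts went the opposite way with I-BET151. Mir22hg rose with I-BET151 (log2 fold change 0.41 ± 0.08) and ITF2357 (0.29 ± 0.08), and had 0.11 ± 0.08 with JQ1 (SE; adjusted p = 2.17e-05, 0.00134 and 0.321). Lncppara, with let-7c-2 and let-7b, rose with I-BET151 (0.37 ± 0.06, SE; adjusted p = 1.46e-06). 6720427I07Rik, which holds let-7d, had 30.9, 33.8 and 30 CPM with I-BET151 and 22.4, 25.8 and 21.7 CPM with ITF2357, against 28.4, 26.6 and 26.2 CPM in the control. The log2 fold change was 0.22 ± 0.07 for I-BET151 and -0.22 ± 0.07 for ITF2357, both called, and 0.16 ± 0.07 for JQ1 (SE; adjusted p = 0.00733, 0.0092 and 0.0943). The I-BET151 call was lost with library totals (0.06, adjusted p = 0.471) or without I-BET151 replicate 2 (adjusted p = 0.0705), and the ITF2357 call without control replicate 1 (adjusted p = 0.058). Dleu2, the host of miR-15a and miR-16-1, fell with ITF2357 (-0.30 ± 0.06; adjusted p = 0.000114) and had 0.18 ± 0.06 with I-BET151 (adjusted p = 0.0101, SE). The rise of Dleu2 was lost without control replicate 2 (adjusted p = 0.0555) or I-BET151 replicate 1 (adjusted p = 0.0527), and with library totals it had 0.02 (adjusted p = 0.755). Gm49890, which holds miR-31, had 45.1, 48.4 and 45.8 CPM with ITF2357, against 67.6, 72.3 and 73.0 CPM in the control. It fell with ITF2357 by 0.61 ± 0.04 on the log2 scale (SE; adjusted p = 1.87e-14). Its log2 fold change with I-BET151 was 0.11 ± 0.04 (adjusted p = 0.0265, SE) and turned to -0.06 with library totals (adjusted p = 0.242). The rise also missed the threshold in 3 fits that left out control replicate 1 (adjusted p = 0.18), replicate 2 of I-BET151 (adjusted p = 0.104) or its replicate 3 (adjusted p = 0.0548).

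**Figure D3:**
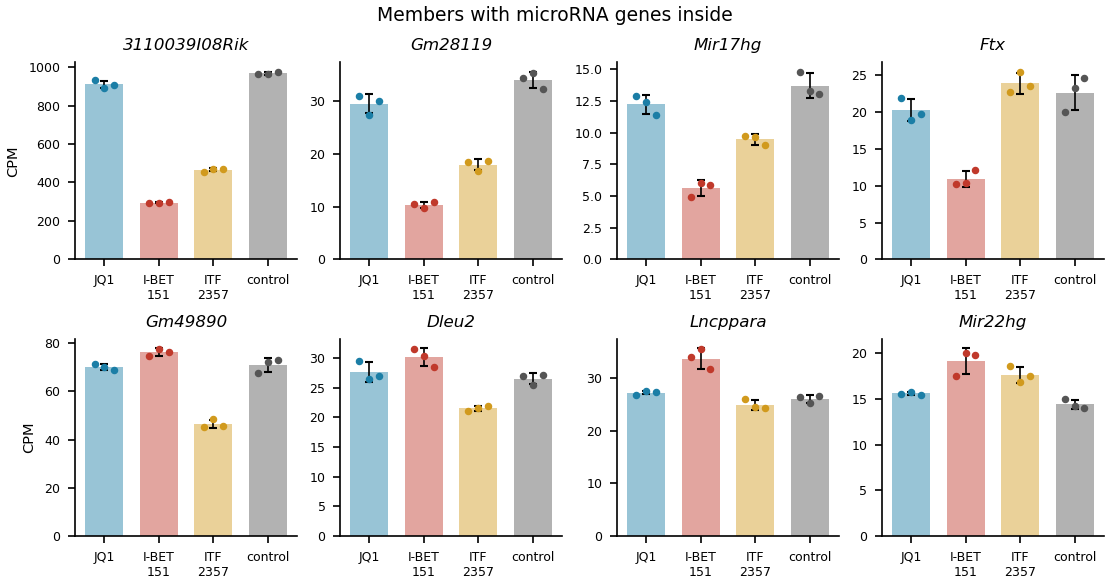
CPM (vertical axes, each from 0) of 8 members that hold microRNA genes, in 3 libraries per group. Bars are means, error bars SD and points single libraries. 3110039I08Rik, Gm28119, Mir17hg and Ftx are lowest with I-BET151, and Gm49890 and Dleu2 are lowest with ITF2357.

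Genes of X inactivation and imprinting formed another fixed list, of which 8 genes were in the table. In these, 2 rose and 2 fell with JQ1 (median log2 fold change -0.13), 3 rose and 4 fell with I-BET151 (median -0.15), and 1 rose and 5 fell with ITF2357 (median -0.40). Over all genes, 12.5% rose and 12.3% fell with JQ1, 30.5% and 32.6% with I-BET151, and 27.6% and 26.4% with ITF2357. Xist, which coats the inactive X chromosome, had 78.5, 73.9 and 75.6 CPM with JQ1, 86.8, 85.8 and 91.2 CPM with I-BET151, and 51.6, 56.5 and 54.9 CPM with ITF2357, against 75.1, 70.6 and 74.2 CPM in the control. ITF2357 libraries were below and I-BET151 libraries above all controls, and JQ1 overlapped them. The log2 fold change was 0.26 ± 0.04 with I-BET151 (adjusted p = 1.31e-06), -0.44 ± 0.04 with ITF2357 (adjusted p = 9.13e-11) and 0.05 ± 0.04 with JQ1 (adjusted p = 0.403, SE).

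Jpx and Ftx, lncRNA genes near Xist that are known to favour its expression in mouse, went the other way from Xist with I-BET151. Ftx had 10.2, 10.4 and 12.1 CPM with I-BET151, against 20, 23.3 and 24.7 CPM in the control, and fell by 1.05 ± 0.09 on the log2 scale (SE; adjusted p = 1.40e-12). Jpx fell by 0.42 ± 0.11 (SE; adjusted p = 0.00128). With ITF2357 the log2 fold change was 0.08 ± 0.08 for Ftx and 0.09 ± 0.10 for Jpx (SE), neither past the threshold. Firre, an X-linked lncRNA that organises chromatin in the nucleus, fell with ITF2357 (-0.58 ± 0.03) and JQ1 (-0.19 ± 0.03, SE). Its value with I-BET151 was 0.03 ± 0.03 (SE; adjusted p = 0.516) and turned to -0.14 with library totals (adjusted p = 0.000475).

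Imprinted lncRNA genes are expressed from 1 parental copy, and some silence neighbours on that copy. Kcnq1ot1, the silencer of a cluster around Kcnq1, fell with all 3 compounds. It had 860, 851 and 869 CPM with JQ1, 744, 728 and 742 CPM with I-BET151, and 700, 693 and 682 CPM with ITF2357, against 982, 951 and 959 CPM in the control. Its log2 fold changes were -0.16 ± 0.02, -0.39 ± 0.02 and -0.48 ± 0.02 (SE). Airn, which silences Igf2r from the paternal copy in mouse, rose with JQ1 (0.13 ± 0.03) and I-BET151 (0.45 ± 0.03) and fell with ITF2357 (-0.40 ± 0.03, SE). Igf2r itself had 0.01 ± 0.03, 0.97 ± 0.03 and 0.02 ± 0.03 (SE) with JQ1, I-BET151 and ITF2357, the second of which passed the test (adjusted p = 1.87e-26). Peg13, which lies in Trappc9, had 20.5, 21.2 and 22.5 CPM with JQ1, 38.6, 38 and 36.5 CPM with I-BET151, and 27.1, 25.1 and 23.3 CPM with ITF2357, against 17.3, 16.4 and 16.3 CPM in the control. All 3 groups were above the control, and the log2 fold changes were 0.36 ± 0.07, 1.18 ± 0.07 and 0.59 ± 0.07 (SE). Nespas, antisense to Gnas in its imprinted cluster, fell with I-BET151 (-0.32 ± 0.08) and ITF2357 (-0.39 ± 0.08) and had -0.10 ± 0.08 with JQ1 (SE; adjusted p = 0.000836, 7.35e-05 and 0.376). It shares 988 exonic bases with Gnas, so its counts are uncertain.

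Among well-known lncRNA genes, Pvt1 lies beside Myc and is co-amplified with it in tumours. Pvt1 had 53.9, 52.1 and 52.2 CPM with JQ1, 27.3, 30.1 and 29.0 CPM with I-BET151, and 34, 34.5 and 36.7 CPM with ITF2357, against 63.8, 61.4 and 60.7 CPM in the control. No group overlapped another. Its log2 fold changes were -0.23 ± 0.05, -1.10 ± 0.05 and -0.82 ± 0.05 (SE) with JQ1, I-BET151 and ITF2357, and those of Myc were -0.32 ± 0.03, -1.56 ± 0.03 and -0.72 ± 0.03 (SE).

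2900097C17Rik, which RefSeq names Norad and which binds Pumilio proteins, rose with all 3 compounds. It had 229, 225 and 224 CPM with JQ1, 289, 300 and 296 CPM with I-BET151, and 240, 242 and 238 CPM with ITF2357, against 190, 189 and 188 CPM in the control. Its log2 fold changes were 0.26 ± 0.03, 0.64 ± 0.03 and 0.34 ± 0.03 (SE). 1700020I14Rik, known as Cyrano or Oip5os1 and as the RNA that directs decay of miR-7, rose with JQ1 (0.12 ± 0.03) and I-BET151 (0.69 ± 0.03) and fell with ITF2357 (-0.22 ± 0.03, SE). Tug1 and Lncpint, a p53-induced gene, shared its directions with I-BET151 and ITF2357: Tug1 had 0.30 ± 0.03 and -0.13 ± 0.03, and Lncpint 0.23 ± 0.04 and -0.20 ± 0.04 (SE). The rise of Lncpint did not pass with library totals (0.07, adjusted p = 0.123). Morrbid, known in mouse myeloid cells as a repressor of the death gene Bcl2l11, had 15.4, 16.3 and 15.4 CPM with I-BET151, against 44.8, 46.3 and 44 CPM in the control, a fall of 1.52 ± 0.06 on the log2 scale (SE; adjusted p = 2.49e-21). With JQ1 and ITF2357 its log2 fold changes were -0.24 ± 0.05 and -0.30 ± 0.05 (SE).

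The largest falls of all members with I-BET151 were in genes of unknown or little known role. Gm13387 (chr2:25122603-25145396) had 42.6, 43.3 and 45.7 CPM with JQ1, 4.71, 4.81 and 4.09 CPM with I-BET151, and 27.7, 25.9 and 28 CPM with ITF2357, against 55.4, 59.6 and 60.1 CPM in the control. All 4 groups stood apart. Its log2 fold change was -3.68 ± 0.08 with I-BET151, -0.41 ± 0.05 with JQ1 and -1.10 ± 0.05 with ITF2357 (SE; adjusted p = 1.24e-29, 1.47e-07 and 2.16e-18). Mirt1, named for a transcript associated with myocardial infarction, had 18.2, 18.9 and 18.7 CPM with JQ1, 3.59, 2.87 and 3.68 CPM with I-BET151, and 12.9, 13.3 and 13.1 CPM with ITF2357, against 31.8, 33.5 and 33.8 CPM in the control. It had the largest fall with JQ1 too, -0.83 ± 0.07, beside -3.29 ± 0.09 with I-BET151 and -1.33 ± 0.07 with ITF2357 (SE). Gm44275 fell by 2.92 ± 0.05 with I-BET151, 0.15 ± 0.04 with JQ1 and 0.79 ± 0.04 with ITF2357 on the log2 scale (SE).

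AU020206 fell with I-BET151 and did not pass the test with JQ1 or ITF2357. It had 29.0, 29.5 and 30.7 CPM with JQ1, 6.70, 7.89 and 6.67 CPM with I-BET151, and 30.8, 33.3 and 27.7 CPM with ITF2357, against 33.7, 32.0 and 28.5 CPM in the control. The JQ1 and ITF2357 libraries overlapped the control, and the I-BET151 libraries lay far below. Its log2 fold change with I-BET151 was -2.14 ± 0.09 (adjusted p = 5.81e-21), beside -0.08 ± 0.07 with JQ1 and -0.04 ± 0.07 with ITF2357 (adjusted p = 0.471 and 0.63, SE). The direct difference between I-BET151 and JQ1 was -2.06 ± 0.09 (SE; adjusted p = 2.19e-20).

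Among the largest rises with I-BET151 were members beside a transcription factor gene and a repair gene. 9030622O22Rik lies downstream of Foxa2, a pioneer factor of endoderm, on the same strand. It had 22.3, 23.4 and 23.9 CPM with JQ1, 57.7, 63.7 and 68.4 CPM with I-BET151, and 25.1, 22.7 and 23.3 CPM with ITF2357, against 17.8, 17.4 and 19.3 CPM in the control. It rose with all 3 compounds, by 0.35 ± 0.07, 1.80 ± 0.06 and 0.39 ± 0.07 (SE), while Foxa2 had 0.04 ± 0.05 with JQ1 (adjusted p = 0.656), 0.65 ± 0.05 with I-BET151 (adjusted p = 2.41e-13) and 0.13 ± 0.05 with ITF2357 (adjusted p = 0.0294, SE). E130307A14Rik starts 111 bases from Rev3l, the catalytic subunit of a translesion polymerase, on the other strand. It had 7.31, 6.89 and 7.93 CPM with JQ1, 20.8, 18.8 and 18.2 CPM with I-BET151, and 5.17, 6.58 and 4.59 CPM with ITF2357, against 5.24, 5.35 and 6.74 CPM in the control. The log2 fold change with I-BET151 was 1.74 ± 0.11 and that of Rev3l 1.06 ± 0.03 (SE). Its JQ1 value of 0.36 ± 0.13 (adjusted p = 0.0333, SE) missed the threshold without any one of 4 libraries, control replicate 1 or 2 or JQ1 replicate 1 or 3 (adjusted p = 0.157, 0.137, 0.0713 and 0.142). The summed count of E130307A14Rik, 2710 at rank 148, was close to the 2668 of the first gene left out. As its I-BET151 libraries were its highest, its place among the members may rest on them. By control counts alone, 136 of the 150 members would have been taken.

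Gm20300 had 13.1, 13.3 and 13.1 CPM with JQ1, 24.7, 24.6 and 25.5 CPM with I-BET151, and 16.9, 17.4 and 18.2 CPM with ITF2357, against 9.02, 8.48 and 9.33 CPM in the control. All groups stood apart, and its log2 fold changes were 0.56 ± 0.08, 1.48 ± 0.08 and 0.97 ± 0.08 (SE). With JQ1 only Gm26870 rose more, by 0.71 ± 0.11 (SE; adjusted p = 8.25e-06), and that gene overlaps several predicted genes on the opposite strand of chromosome 9, so that its counts are uncertain. The summed count of Gm26870, 2766 at rank 145, was also close to the 2668 of the first gene left out. It was called higher than the control with JQ1 and ITF2357, so its place among the members may rest on those libraries.

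**Figure D4:**
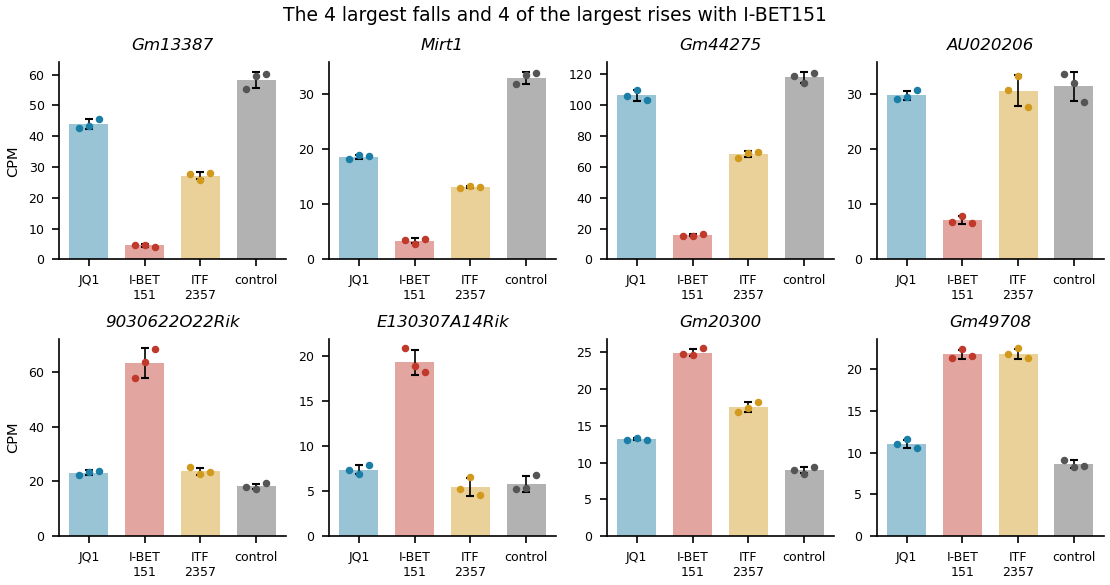
CPM (vertical axes, each from 0) of the members with the 4 largest falls, Gm13387, Mirt1, Gm44275 and AU020206, and 4 of the largest rises, 9030622O22Rik, E130307A14Rik, Gm20300 and Gm49708, with I-BET151 against control. Bars are means, error bars SD and points single libraries. The I-BET151 bar is the lowest in every panel of the upper row. In the lower row it is the highest for 9030622O22Rik, E130307A14Rik and Gm20300, and Gm49708 stands about level with I-BET151 and ITF2357.

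With ITF2357 the largest falls were in hosts, 2410006H16Rik at -1.66, Snhg12 at -1.38 and Zfas1 at -1.30, and in Mirt1 at -1.33. Outside the hosts, 6330403L08Rik, on the strand opposite Pdgfa, had 7.13, 5.94 and 6.47 CPM with ITF2357, against 16.5, 16.7 and 14.3 CPM in the control. It fell by 1.27 ± 0.09 with ITF2357 and rose by 0.83 ± 0.08 with I-BET151 on the log2 scale (SE; adjusted p = 4.88e-14 and 2.35e-11), while Pdgfa, a growth factor gene, fell by 1.28 ± 0.06 with ITF2357 and 0.22 ± 0.06 with I-BET151 (SE). The exons of this pair share 813 bases. The largest rises with ITF2357 were Gm49708 and AC132253.9. Gm49708 had 11, 11.6 and 10.6 CPM with JQ1, 21.4, 22.4 and 21.6 CPM with I-BET151, and 21.8, 22.5 and 21.3 CPM with ITF2357, against 9.18, 8.26 and 8.42 CPM in the control. Its log2 fold change was 1.34 ± 0.08 with both I-BET151 and ITF2357 and 0.36 ± 0.09 with JQ1 (SE). AC132253.9 likewise had 1.04 with both compounds and 0.46 with JQ1.

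Further members among the most counted or the most changed fell with I-BET151. Gm6634 had 6.36, 5.11 and 5.56 CPM with I-BET151 and 7.80, 8.49 and 8.62 CPM with ITF2357, against 18, 19.3 and 19.8 CPM in the control. It was 3.36-fold lower with I-BET151 and 2.29-fold lower with ITF2357 than in the control, and had a log2 fold change of -0.01 ± 0.08 (SE) with JQ1 (adjusted p = 1.72e-17, 5.91e-14 and 0.944). 4930461G14Rik had log2 fold changes of -0.60 ± 0.07 for JQ1, -1.6 ± 0.08 for I-BET151 and -0.25 ± 0.07 for ITF2357 (SE), all called. 9330188P03Rik had -0.21 ± 0.06, -1.55 ± 0.07 and -1.27 ± 0.07 in that order (SE), of which the JQ1 call was lost without JQ1 replicate 2 (adjusted p = 0.0598). 1110002L01Rik (-0.57, -0.74 and -1.09) and Gm47283 (-0.53, -0.85 and -0.85) fell with all 3 compounds too. The first shares exonic bases with Kif3c and Asxl2 on the opposite strand, so its counts are uncertain. Gm47283 is typed as protein-coding in GENCODE M21, where it was matched without the version of its identifier.

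Others rose with I-BET151. 5031425E22Rik starts 172 bases from Kmt2e, a gene of the histone methyltransferase family, on the other strand. It had 63.2, 65.0 and 66.2 CPM with I-BET151 and 24.7, 29.5 and 23.9 CPM with ITF2357, against 31, 30.4 and 28.8 CPM in the control. It rose by 1.11 ± 0.06 with I-BET151 and fell by 0.22 ± 0.07 with ITF2357 on the log2 scale (SE; adjusted p = 3.56e-17 and 0.00631), and that of Kmt2e with I-BET151 was 0.71 ± 0.03 (SE). 4632427E13Rik starts 135 bases from Rab30 in the same arrangement and rose with I-BET151 by 0.63 ± 0.04, while Rab30 rose by 0.52 ± 0.08 (SE). Gm37305, whose exons overlap those of Ccnl1 on the opposite strand, rose by 1.09 ± 0.10 with I-BET151 (SE; adjusted p = 5.43e-12). Gm47547 (0.54 and 0.80) and 3110039M20Rik (0.70 and 0.70) rose with both I-BET151 and ITF2357 on the log2 scale, and 3110039M20Rik shares exonic bases with Gm43517.

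AI506816, the seventh most counted member, moved oppositely with the BET and deacetylase inhibitors. It had 155, 158 and 160 CPM with JQ1, 108, 113 and 109 CPM with I-BET151, and 258, 255 and 274 CPM with ITF2357, against 184, 193 and 195 CPM in the control. JQ1 and I-BET151 libraries lay below the control and ITF2357 libraries above it. Its log2 fold changes were -0.28 ± 0.03, -0.79 ± 0.03 and 0.46 ± 0.03 (SE; adjusted p = 1.69e-08, 7.64e-21 and 5.95e-15).

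Across the compounds, 28 members fell with all 3, and 12 of these 28 were snoRNA hosts. These 28 are 18.7% of the members, beside 6.63% of all 17340 genes and 10.6% of the 9611 genes counted at least as often as the lowest member. Another 12 (8%) rose with all 3, among them 2900097C17Rik, Peg13, Gm20300 and 9030622O22Rik, beside 6.70% of all genes and 10.9% of those counted as often. Calls with none of the compounds were found for 8 members (5.33%), beside 22.6% and 7.13% of these genes. The comparisons with control share the same 3 control libraries, so calls in one are not independent of calls in another. ITF2357 and I-BET151 were also compared directly, a comparison added after the data were seen, in which 62.8% of all genes were called. In it 28 members that rose with I-BET151 and fell with ITF2357 were all called lower with ITF2357, for example 1700020I14Rik (-0.91) and Airn (-0.85). These members were picked for opposite calls against the same control, so this outcome was largely fixed in advance and is no separate check. They are 18.7% of the members, while 4.11% of all genes and 6.65% of those counted as often showed the same calls. With library totals this pattern held in 18 members.

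JQ1 and I-BET151 were compared directly at the same dose and time, as 1 pair of compounds. Of the 150 members, 64 were higher and 57 lower with I-BET151 than with JQ1, where 60.4% of all genes were called, 29.8% higher and 30.7% lower. Among genes counted as deeply as the members, 75.6% were called, 42.7% higher and 32.9% lower. Called changes of at least 2-fold were in 24 members, where 13.6% of all genes had one. The median difference of the members was 0.03 on the log2 scale, beside -0.01 over all genes. All 10 genes named Snhg or Gas5 were lower with I-BET151, with differences of -0.36 to -1.31 and a median of -0.97, and the other 4 hosts were lower too. Scaling by library totals moved the split of the members to 47 higher and 70 lower with I-BET151, and left the 10 hosts lower.

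A difference between the 2 BET inhibitors was not called in 29 members, whose 95% intervals all lay between -0.48 and 0.46 on the log2 scale. Gm42418 had a difference of -0.04 (95% interval -0.11 to 0.03, adjusted p = 0.235), Jpx -0.22 (-0.48 to 0.04, adjusted p = 0.0901) and Dleu2 0.12 (-0.02 to 0.26, adjusted p = 0.0931). All 3 passed in some alternatives: with library totals Gm42418 had -0.20 (adjusted p = 7.28e-07) and Jpx -0.37 (adjusted p = 0.00452). Without JQ1 replicate 1 Gm42418 (-0.08, adjusted p = 0.0495) and Dleu2 (0.17, adjusted p = 0.0318) passed, as did Jpx without JQ1 replicate 3 (-0.29, adjusted p = 0.043) and Dleu2 without I-BET151 replicate 3 (0.16, adjusted p = 0.0419). In 4 members the level was lower with I-BET151 than with JQ1 while I-BET151 against control was not called, and A330074K22Rik and Gm26870 are shown because both rose with JQ1. A330074K22Rik had 10.6, 10.3 and 8.83 CPM with I-BET151 and 14.4, 14.9 and 15.3 CPM with JQ1, against 11.5, 10.6 and 12.2 CPM in the control. Gm26870 had 7.14, 8.15 and 5.65 CPM with I-BET151 and 11.7, 13.2 and 11.5 CPM with JQ1, against 6.61, 7.55 and 7.95 CPM in the control. The difference was -0.58 ± 0.10 for A330074K22Rik and -0.79 ± 0.12 for Gm26870 (SE; adjusted p = 5.12e-06 and 3.72e-07). With library totals A330074K22Rik was called lower with I-BET151 than in the control (-0.37, adjusted p = 0.0023), against -0.20 in the fit above (adjusted p = 0.0828).

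Members in different positions relative to coding genes split differently between rises and falls, and the difference between these classes was not tested. Each member was put in the first class that applied, in the order same strand overlap, opposite strand overlap, head to head and downstream. By the annotation 43 members overlapped a coding gene on the same strand and 32 were classed as overlapping one on the opposite strand. Of those without overlap, 12 started head to head with a coding gene, 9 lay within 5 kb downstream of one and 54 lay apart. A member classed by its overlap can also start head to head with a coding gene, as Brip1os does with Brip1. With I-BET151, 35 of the 54 that lay apart fell and 14 rose (median log2 fold change -0.41), whereas 26 of the 43 on the strand of a coding gene rose and 11 fell (median 0.26). Leaving out the snoRNA hosts, 30 of 49 apart from coding genes fell and 14 rose (median -0.29), and 26 of 41 on the same strand rose and 9 fell (median 0.27). With ITF2357 falls outnumbered rises in both classes, 36 to 8 and 19 to 12. Over all genes, 32.6% fell and 30.5% rose with I-BET151, and 26.4% and 27.6% with ITF2357. Among the 9611 genes counted as deeply as the members, these shares were 36.8% and 42.2%, and 32.8% and 36.9%. Scaling by library totals shifted the all-gene median with I-BET151 by -0.16, and the classes were not counted under it. The sources do not state a strand setting for the counting, and 57 members share exonic bases with another gene on either strand. Counts of such pairs cannot be told apart.

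Members on the strand of a coding gene tended to move with it. In 40 pairs of a member and the coding gene that overlaps it, Pearson's r between the 2 log2 fold changes was 0.54 for JQ1, 0.57 for I-BET151 and 0.54 for ITF2357. The pairs hold 35 coding genes, are measured in the same libraries and can share reads, so r is a description across genes. With I-BET151 both partners were called in 30 pairs, and in 28 of these they moved the same way. For 37 pairs on opposite strands whose starts lay within 5 kb, r was 0.44 for JQ1, 0.19 for I-BET151 and 0.50 for ITF2357, and with I-BET151 14 of 23 pairs called in both partners moved the same way.

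One such group was in Magi3, a scaffold gene of cell junctions, where 6 members lay on the same strand within introns (Gm43256, Gm43258, Gm43259, Gm43260, Gm42701 and Gm42702). All 6 rose with JQ1 and I-BET151 and 5 rose with ITF2357. Their log2 fold changes were 0.21 to 0.35 with JQ1, 0.70 to 0.85 with I-BET151 and 0.13 to 0.35 with ITF2357. Those of Magi3 were 0.26 ± 0.03, 0.97 ± 0.03 and 0.42 ± 0.03 (SE). Reads from unspliced Magi3 transcripts would be counted in these 6 as well, so they are not 6 separate observations. The JQ1 call of Gm43256 was lost without control replicate 2 (adjusted p = 0.072) or JQ1 replicate 1 (adjusted p = 0.0615).

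**Figure D5:**
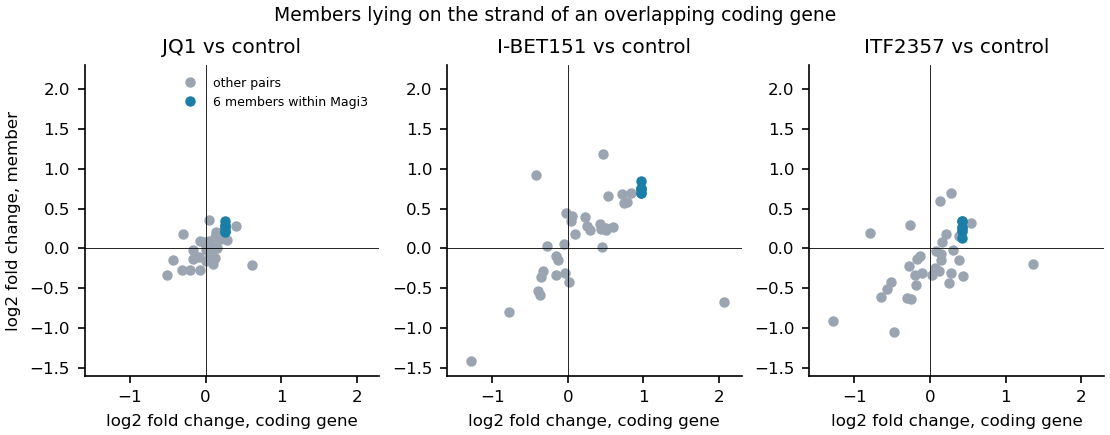
Log2 fold change of a member (vertical axis) against that of the coding gene it overlaps on the same strand (horizontal axis), 1 point per pair, 40 pairs, in 3 comparisons with control. The 6 members within Magi3 are marked and lie in the upper right of each panel, next to the log2 fold change of Magi3 of 0.26, 0.97 and 0.42.

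Other neighbours parted. 1810026B05Rik, which RefSeq names Chaserr and which is known to repress Chd2 just downstream in mouse, had 65.7, 67.8 and 67.5 CPM with I-BET151, against 34.6, 35.4 and 36.1 CPM in the control, and rose by 0.92 ± 0.06 (SE; adjusted p = 2.87e-16). Chd2, a chromatin remodeller, fell with I-BET151 (-0.42 ± 0.03) and also with JQ1 (-0.30 ± 0.03) and ITF2357 (-0.80 ± 0.03, SE). Both genes share 2628 exonic bases, whose reads cannot be told apart. The rises of 1810026B05Rik with JQ1 (0.18 ± 0.06) and ITF2357 (0.19 ± 0.06, SE) were small. The JQ1 call was lost without control replicate 1 or 2 or JQ1 replicate 1 (adjusted p = 0.0767, 0.0502 and 0.188), and the ITF2357 call without ITF2357 replicate 2 (adjusted p = 0.0669). 2810013P06Rik, whose start is 189 bases from that of Ankrd11, rose with I-BET151 by 1.16 ± 0.10, and Ankrd11 fell by 0.52 on the log2 scale.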

How the data were processed

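The deposited table holds raw read counts per gene for 12 libraries, 1 column each. The submitters' processing notes name mm10 and, as tools, Subread 2.0.1 with featureCounts, STAR 2.7.2a, edgeR 3.38.4 and bcl2fastq. Annotation release and strand setting are not stated there. Of the gene identifiers, 17170 (99.0%) match GENCODE M21 exactly, which gave positions (148 members exactly, 2 without the version).

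From the counts, edgeR 4.0.16 in R 4.3.3 fitted all 12 libraries with TMM factors and a quasi-likelihood test without covariates. The low-count filter removed 0 genes, and p-values were adjusted by Benjamini-Hochberg over 17340 genes. CPM and RPKM were computed from the counts with TMM factors, and SE is the log2 fold change over the square root of F. Totals of 21015748 to 31231260 counts gave a common coefficient of variation of 3.37%. The test was tested on simulated data. The members, gene lists and tests were chosen with earlier results of these data known. Members described were taken from the Snhg genes and Gas5, the 20 most counted, the 8 largest non-overlapping rises and falls per comparison and a fixed list of well-known genes, and the others were chosen after their values were seen. Alternatives were DESeq2 1.42.0, other scalings, filters, fits, member choices, and leaving out each library. The authors' deposited table also gives log2 fold changes, log2 CPM, log2 RPKM and p-values with false discovery rates, and its calls were only counted. Values of 1 member that the rule takes are not reported here, and it stays in all counts.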

Additional observations from a re-analysis of the deposited data

Results flagged for a closer look

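The effects of JQ1 and I-BET151 against control were called in opposite directions for 4 members (2.67%). Such calls were found in 3.44% of all genes and 5.57% of those counted as deeply as the members. They were thus no more frequent among the members. The direct difference between the 2 compounds, I-BET151 against JQ1, was also called for each of the 4 members, which opposite calls against the same control largely fix in advance. Gm35019 had 25.8, 24.8 and 27.9 CPM with I-BET151 and 49.1, 47.8 and 47.4 CPM with JQ1, against 40.5, 40.6 and 40.5 CPM in the control, and the difference was -0.88 on the log2 scale (adjusted p = 4.42e-16). Brip1os had 59.7, 60.0 and 61.0 CPM with I-BET151 and 74.7, 73.1 and 73.3 CPM with JQ1, against 68.2, 65.9 and 65.2 CPM in the control, and the difference was -0.29 (adjusted p = 8.12e-08). 4632404H12Rik had 18.5, 21.7 and 19 CPM with I-BET151 and 13.0, 10.8 and 13.3 CPM with JQ1, against 17.9, 16.3 and 15.8 CPM in the control, and the difference was 0.67 (adjusted p = 4.16e-08). The I-BET151 rise of 4632404H12Rik (0.25) was lost with library totals (0.08, adjusted p = 0.398), without control replicate 3 (adjusted p = 0.0606) or without I-BET151 replicate 2 (adjusted p = 0.129). Gm37233 had 129, 137 and 128 CPM with I-BET151 and 93.9, 93.4 and 99.5 CPM with JQ1, against 101, 102 and 105 CPM in the control, and the difference was 0.46 (adjusted p = 5.75e-13). Its JQ1 call (-0.10) was lost without any 1 of 5 libraries (adjusted p = 0.055 to 0.151), and with DESeq2 (adjusted p = 0.0715).

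ITF2357 and I-BET151 also went opposite ways in some members. A direct comparison of ITF2357 with I-BET151, added after the data were seen, was called for 62.8% of all genes. 28 members fell with ITF2357, rose with I-BET151 and differed in the direct comparison, among them Tug1, 1700020I14Rik, Airn, Xist and 6330403L08Rik. The last condition is largely fixed by opposite calls against the same control, and it removed no member. The 28 are 18.7% of the members, beside 4.11% of all genes and 6.65% of those counted as deeply. With library totals the count was 18. The reverse held for 5 members, AI506816, Gm10076, Brip1os, Gm35019 and Gm20559, which rose with ITF2357 and fell with I-BET151. They are 3.33% of the members, beside 5.98% of all genes and 7.53% of those counted as deeply. The direct difference, ITF2357 against I-BET151, was 1.03 for Gm35019 and -2.10 for 6330403L08Rik (both called).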

How the results depend on the processing

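Counts of called members stayed within 1.5 times under DESeq2 size factors, library totals, the DESeq2 test, no filter, the stricter filter, 2-group fits, without Gm26917 and Gm42418 (chosen after seeing the data), with members chosen by mean CPM or by control counts, and without each library. The falls of the 10 Snhg and Gas5 members ranged from 7 to 8 with JQ1 and 9 to 10 with ITF2357, and were 10 with I-BET151, when each library was left out. Taking all 1518 lncRNA genes gave 46 higher and 76 lower with JQ1, 313 and 382 with I-BET151, 136 and 386 with ITF2357, and 309 and 350 for I-BET151 against JQ1. Taking the 93 members with no exon overlap, by construction fewer genes, gave 20 lower with JQ1, 45 higher and 36 lower with I-BET151, 50 lower with ITF2357, and 42 higher and 34 lower for I-BET151 against JQ1. As a share of lncRNA counts with Malat1 and Neat1, the members were 6.32 percentage points higher with ITF2357 than in the control, the reverse of their share of all counts (-0.269 points), and the cause was not tested. With library totals, Firre turned to -0.14 with I-BET151 and Gm49890 to -0.06, and to -0.03 for I-BET151 against JQ1, where the shift of all genes by that scaling was -0.16 and -0.15. Replicate numbers did not pair the libraries (same-number correlations -0.09 to 0.02, and 0 of 12 libraries correlated best with their own number). With the replicate as a block 60 members fell with I-BET151 in place of 61, and no call of a named member changed. Of 308 values of named members, 265 were called, and leaving out 1 library ended between 1 and 10 of these calls. The authors' deposited table calls 60 members for JQ1, 130 for I-BET151 and 113 for ITF2357, of which 58, 129 and 112 were called here too.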
